A study of Mus musculus with 4 samples.

Results

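The members of this set were 8 mouse genes, Ets1, Ets2, Erg, Fli1, Fev, Gabpa, Gabpb1 and Gabpb2, out of 21938 protein-coding genes on the assembled chromosomes. They were chosen by name as the ETS, ERG and GABP genes, and every peak in the gene body or the 10 kb on either side was counted to them. FOXR2-bound chromatin had been profiled by CUT&RUN, in which an antibody directs a nuclease to cut DNA around the protein it recognises, and the released fragments are sequenced. The antibody was against the V5 tag, the chromatin came from lightly fixed cells, and peaks had been called separately in each of 4 libraries. Positions are those of mm10 (GRCm38) with the GENCODE M21 annotation.

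Of these libraries, 2 came from the Foxr2 p53LOF line. Its tumour of origin arose in C57BL/6J mice after in utero electroporation, with FOXR2 carrying a V5 tag at its C-terminus and driven by the ubiquitous CAG promoter from a piggyBac transposon, together with Cas9 and a guide against Trp53. The line was grown as neurospheres from GFP-positive tumour cells, so its FOXR2 is an overexpressed transgene in a single cultured model. The other 2 libraries were V5 controls from a C57BL/6J line of genotype H3.3G34R, from a different electroporation model, which lacked the tag. Absence of the tag and the other genotype cannot be told apart in these controls. Whether replicates 1 and 2 were separate cultures is not stated, so their spread may be technical, and no test of the conditions was run on 2 libraries against 2.

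ETS factors bind DNA through a winged helix-turn-helix domain that reads a GGAA core. Ets1 and Ets2 are paralogues that act downstream of Ras and MAP kinase signalling, Erg and Fli1 are best known in endothelial and blood cells, and Fev (also called Pet1) is known for its role in serotonergic neurons. GABPA is an ETS protein that works as a complex with GABPB1 or GABPB2, which carry ankyrin repeats and the activation domain but no ETS domain. The peak lists show where FOXR2 was found at the genes that encode these factors, and they do not show where the ETS or GABP proteins themselves were bound.

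Peaks were present at most of these genes in the Foxr2 p53LOF line, and 5 of the 8 held a site found in both replicates. Those 5 were Ets1 with 7 sites, Gabpb2 with 2, and Ets2, Gabpa and Gabpb1 with 1 each, 12 sites in all. Erg, Fli1 and Fev held none. A site here is a stretch covered in both replicates by peaks of fold enrichment above 6 and −log10 q above 6, shorter than 10000 bp and clear of control peaks. The fold enrichment sets the fragments at a peak's summit against the background level of that same library. Across all protein-coding genes 50.0% held such a site by the same count, so 62.5% of 8 genes was near the background. Each of the 5 genes had a site within 1 kb of a start of one of its own protein-coding transcripts, or 62.5% of the members against 39.2% of all genes.

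**Figure D1:**
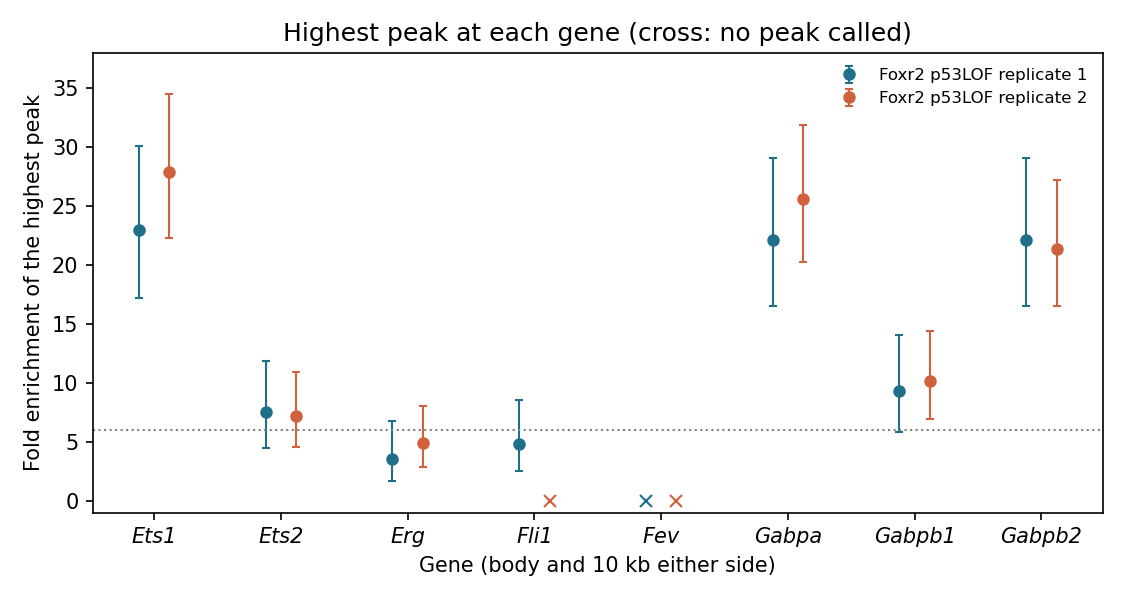
Highest fold enrichment of any peak in each gene's region, by library, with 95% Poisson intervals for the fragments at the summit and a line at the minimum of 6. Ets1, Gabpa and Gabpb2 lie highest (21.4 or more in both Foxr2 p53LOF replicates), Erg and Fli1 lie under the line, and the V5 control libraries had no peak at any of the 8 genes. The Gabpb2 value is from a peak with summits 10.6 kb before the gene, at starts of Mllt11 and Cdc42se1. The site at the Gabpb2 start had folds of 17.7 and 18.4.

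The member regions held 25 peaks in replicate 1 and 26 in replicate 2 of the Foxr2 p53LOF line, of which 13 and 12 were above a fold of 6. In replicate 1, 7 of the 8 genes had a peak of any fold (66.2% of all genes did) and 5 had one above 6 (53.4%). In replicate 2 the numbers were 6 genes (66.9% of all genes) and 5 genes (55.4%). In neither V5 control library did any member region contain a peak, where peaks touched 0.524% of all genes in control replicate 1 and 0.260% in control replicate 2. The control lists were short, at 308 and 124 peaks against 31909 and 38580, and the nearest control peak lay 2.54 Mb from Ets1 and 86.9 Mb from Gabpb2.

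All member peaks above 6 in replicate 1 overlapped a peak of replicate 2, and the reverse held too. Of those at 6 or below, 7 of 12 in replicate 1 and 8 of 14 in replicate 2 had a partner. Over all peaks the shares with a partner were 98.8% and 96.7% above 6, and 58.2% and 36.0% at or below it. The fold is a whole number of fragments plus 1 over the background of the library plus 1, with a background of 1.2633 fragments in replicate 1 and 2.0438 in replicate 2. To exceed a fold of 6, a peak therefore needed 13 fragments in replicate 1 and 18 in replicate 2, while the weakest peaks called rested on 6 and 8. The control libraries needed 16 and 9 fragments, and their weakest peaks rested on 10 and 7. Intervals given with a fold are 95% exact Poisson intervals on those fragments, and they cover counting error only.

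Ets1 (ENSMUSG00000032035.15, chr9:32636221-32757820, plus strand), an ETS activator first known as a cellular proto-oncogene, had the most peaks of the 8 genes. Each replicate had 16 peaks in its region of 141600 bp, and they covered 13.9% of the region in replicate 1 and 18.5% in replicate 2. The annotated gene start belongs to transcripts that encode no protein. The 4 coding transcripts start between 59.8 and 60.2 kb farther in, at 32696022 to 32696384. Of the 7 sites, 5 lay before every coding start, in introns of a noncoding transcript only, 1 covered the coding starts, and 1 lay in intron 1 of a coding transcript.

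The strongest Ets1 site, chr9:32666799-32669875, stood 28.1 kb before the first coding start. It reached a fold of 23.0 in replicate 1 (17.2 to 30.1, from 51 fragments) and 27.9 in replicate 2 (22.3 to 34.5, from 84 fragments), with summits 16 bp apart. The lower of its 2 folds exceeded that of 96.6% of all 11947 reproducible sites. The 200 bp around its summit, read from the GRCm38 plus strand, are shown first because they carry the highest signal of any member. The window at the next site, 23.5 kb before the coding starts, follows because it is the only member window with GTAAACA, the forkhead consensus. The window at the site 10.1 kb before them is the only one with the E-box CACGTG. Capitals mark CAGGAA in the first, GTAAACA in the second and CACGTG in the third.
Ets1 at chr9:32667843-32668042: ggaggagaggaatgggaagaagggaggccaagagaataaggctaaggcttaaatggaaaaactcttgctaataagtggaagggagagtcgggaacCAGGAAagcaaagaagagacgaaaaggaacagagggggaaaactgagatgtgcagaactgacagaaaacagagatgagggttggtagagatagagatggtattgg
Ets1 at chr9:32672469-32672668: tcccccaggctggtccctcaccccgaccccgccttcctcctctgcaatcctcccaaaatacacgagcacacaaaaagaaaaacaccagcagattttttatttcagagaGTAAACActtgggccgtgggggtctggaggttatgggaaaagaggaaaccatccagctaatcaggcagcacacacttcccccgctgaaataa
Ets1 at chr9:32685863-32686062: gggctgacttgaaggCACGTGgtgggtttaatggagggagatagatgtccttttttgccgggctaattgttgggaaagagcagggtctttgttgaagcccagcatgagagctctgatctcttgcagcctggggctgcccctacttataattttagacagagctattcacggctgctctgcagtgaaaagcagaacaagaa

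The other 4 Ets1 sites before the coding starts were weaker. The site at chr9:32671387-32673758, which holds the window with GTAAACA, had folds of 9.28 (5.84 to 14.1) and 8.87 (5.91 to 12.8) in replicates 1 and 2. The site at chr9:32685289-32686604, which holds the E-box window, had 10.2 (6.53 to 15.2) and 14.5 (10.6 to 19.4). Their intervals overlap between the replicates, and the summits were 8 bp apart at the former and 513 bp apart at the latter, so the E-box window sits between a pair of separate summits. The site at chr9:32675332-32676687, 19.5 kb before the coding starts, had 8.39 and 8.54. The most upstream site, chr9:32647150-32648000 and 48.6 kb before them, had 6.63 (3.82 to 10.8, from 14 fragments) and 6.90 (4.34 to 10.5, from 20 fragments), just above the minimum. Only 14.5% of all sites had a lower fold of the replicate pair beneath that of this one.

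At the Ets1 coding starts themselves the folds were 8.39 (5.16 to 13.0) and 8.54 (5.64 to 12.5). Their summits lay 974 bp apart, that of replicate 1 at 348 bp after the last coding start (32696384) and that of replicate 2 at 264 bp before the first (32696022). In intron 1, 21.1 kb past the coding starts, the site chr9:32715577-32718139 had 9.72 (6.19 to 14.6) and 13.8 (9.99 to 18.6). The promoter fold was thus below that of the strongest upstream site in both replicates, and the 95% intervals of the 2 sites did not overlap in either.

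**Figure D2:**
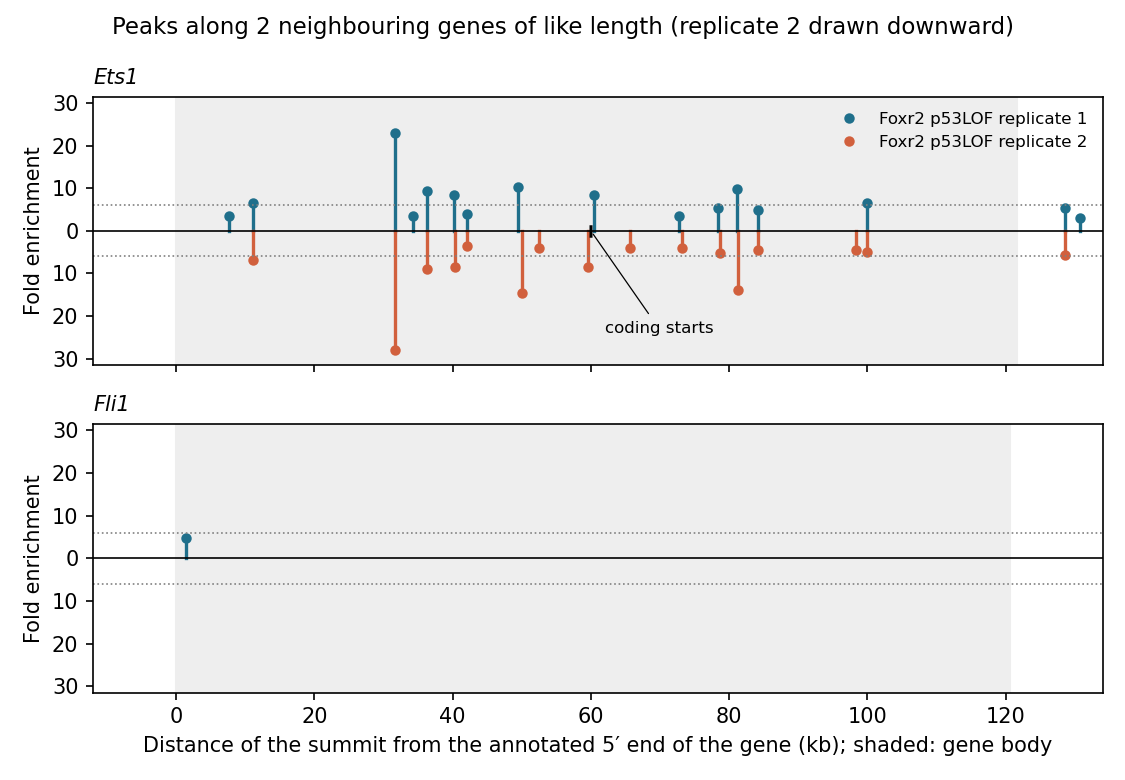
Peaks along the Ets1 and Fli1 regions, with distance from the gene start in kb against fold enrichment, one symbol per replicate and a line at the minimum of 6. Ets1 had 16 peaks in each replicate, spread over the region with the highest 28.1 kb before the coding starts, whereas Fli1 had 1 peak, in replicate 1.

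A further 6 stretches at Ets1 were peaks in both replicates without passing the minimum in both. Just outside it were the stretch at chr9:32735912-32736263 in intron 5 of a coding transcript, with folds of 6.63 and 4.93, and the one at chr9:32763981-32764970 beyond the end of the gene, with 5.30 and 5.59. The other 4 had folds between 3.53 and 5.30. Without limits on fold and q there were 13 sites at Ets1, and a minimum of 10 left 2.

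The number of sites a gene can hold grows with its region, so Ets1 was set beside the 592 protein-coding genes with a region length within 10% of its own. Of these, 0.169% held at least as many sites, which is 1 gene, Fam178b with 9, a gene chosen after its value was seen. Their median was 1 site, and 244 of them had none. The other members with a site were at or near the median of their own like-length genes, which was 1 site in each case, with 1 site at Ets2, Gabpa and Gabpb1 and 2 at Gabpb2. By a rule on the number of sites and then the highest folds, the genes most like Ets1 were Tom1l2, with 6 sites and highest folds of 24.3 and 35.8, and Dclk2, with 6 sites and 15.9 and 17.7.

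**Figure D3:**
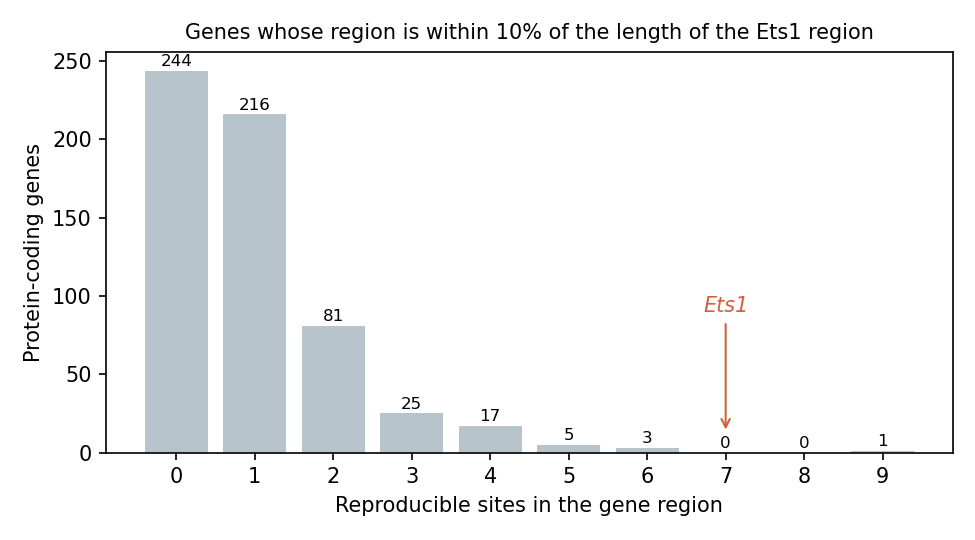
Number of reproducible sites in each protein-coding gene whose region length is within 10% of that of Ets1, as counts of genes. Of 592 genes, 244 had 0 sites and 216 had 1. Only 1 gene, with 9 sites, had at least as many as the 7 of Ets1, which are marked by an arrow.

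Ets2 (ENSMUSG00000022895.16, chr16:95702075-95721051, plus strand), the paralogue of Ets1, had a single peak in each replicate, at its start. The site at chr16:95701847-95703244 had folds of 7.51 (4.48 to 11.9, from 16 fragments) and 7.23 (4.60 to 10.9, from 21 fragments). Its summits lay 63 bp after and 48 bp before the start. It is among the weaker sites, with 25.8% of all sites under it, and it was lost at a minimum of 10.

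The ERG subfamily had little signal. Erg (ENSMUSG00000040732.20, chr16:95359169-95586593, minus strand) is the longest of the 8 genes, and its region of 247425 bp held 1 peak per replicate, at the same place in intron 1 of a coding transcript, 13.0 kb into the gene. The folds were 3.53 in replicate 1 (1.69 to 6.81, from 7 fragments) and 4.93 in replicate 2 (2.84 to 8.05, from 14 fragments). The summits were 65 bp apart, and both folds were under the minimum, so Erg entered only once the fold and q limits were dropped. No peak was called at any of its 6 coding starts. Of 252 genes of like region length, 56.0% held a site.

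Fli1 (ENSMUSG00000016087.13, chr9:32422204-32542861, minus strand) had 1 peak in replicate 1 and none in replicate 2. That peak had a fold of 4.86 (2.56 to 8.57, from 10 fragments) and its summit lay 209 bp past a coding start, in untranslated exon. Of 597 genes of like region length, 58.5% held a site. Fev (ENSMUSG00000055197.4, chr1:74881509-74885419, minus strand), the shortest of the 8, had no peak in either replicate, and 37.1% of 4128 genes of like region length held a site. For these 3 genes a site above the minimum was not detected at this depth, which does not show that FOXR2 was absent.

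Each ERG-type gene that had a peak lies beside an Ets gene. Fli1 and Ets1 are separated by 93.4 kb on chromosome 9, with regions of 140658 and 141600 bp. Replicate 1 called 1 peak in the Fli1 region and 16 in that of Ets1, and replicate 2 called 0 and 16. In the stretch between the 2 genes there were 1 and 2 peaks. Erg and Ets2 are separated by 115 kb on chromosome 16, and 1 and 0 peaks were called between them. These counts leave out the peaks at the Ets2 start, where the replicate 2 summit lay 48 bp before the gene. Neither chromosome was rich in sites, with 4.37 per Mb on chromosome 9 and 3.36 on chromosome 16, in a range over the autosomes from 3.01 on chromosome 12 to 9.67 on chromosome 11.

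Each of the GABP genes had a site at its start. Gabpa (ENSMUSG00000008976.16, chr16:84834925-84863779, plus strand), which encodes the DNA-binding ETS subunit, had a site at chr16:84834315-84836327 with folds of 22.1 (16.5 to 29.1, from 49 fragments) and 25.6 (20.3 to 31.9, from 77 fragments). Its summits were 10 bp apart, and 96.0% of all sites ranked under it. The same site held starts of Atp5j, a mitochondrial ATP synthase subunit gene on the opposite strand. The nearest Atp5j start lay 30 bp from the mean summit and the nearest Gabpa coding start 61 bp, so the signal cannot be assigned to either gene. Replicate 1 alone had a second Gabpa peak, of fold 3.09, 7.40 kb before the gene.

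Gabpb1 (ENSMUSG00000027361.15, chr2:126627442-126676337, minus strand) encodes a partner subunit of GABPA. Its site at chr2:126674276-126676852 had folds of 9.28 (5.84 to 14.1) and 10.2 (6.98 to 14.4), below those of Gabpa in both replicates, with intervals that did not overlap in either. The Gabpb1 summits were 547 bp apart. The start of the antisense transcript Gm27003 lay 246 bp from their mean. It was 28 bp from the replicate 1 summit and 519 bp from that of replicate 2. The nearest Gabpb1 coding starts were 352 bp and 45 bp from these summits, so the signal cannot be assigned to either gene.

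Gabpb2 (ENSMUSG00000038766.16, chr3:95181766-95217916, minus strand), the gene of the other partner subunit, had 3 peaks in replicate 1 and 6 in replicate 2. At its start the site chr3:95216573-95218996 had folds of 17.7 (12.7 to 24.0) and 18.4 (13.9 to 23.8), with summits 42 bp apart, and it also held the start of the antisense transcript Gm16740. A further site at chr3:95226487-95231136 had 22.1 (16.5 to 29.1) and 21.4 (16.5 to 27.2), with summits 4 bp apart, the closest summits of the 12 sites. It enters the Gabpb2 region only by its edge, since its summits lie 10.6 kb before the gene. It covers starts of Mllt11, 172 bp from the mean summit, and of Cdc42se1, 227 bp from it, which lie on opposite strands. With both summits required inside the region, a setting chosen after seeing the data, Gabpb2 had 1 site and the 8 genes 11.

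The remaining Gabpb2 peaks were all below a fold of 4. A stretch called in both replicates beyond the end of the gene had 3.53 and 3.94, and 3 more peaks in replicate 2 alone had 3.29 to 3.94.

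**Figure D4:**
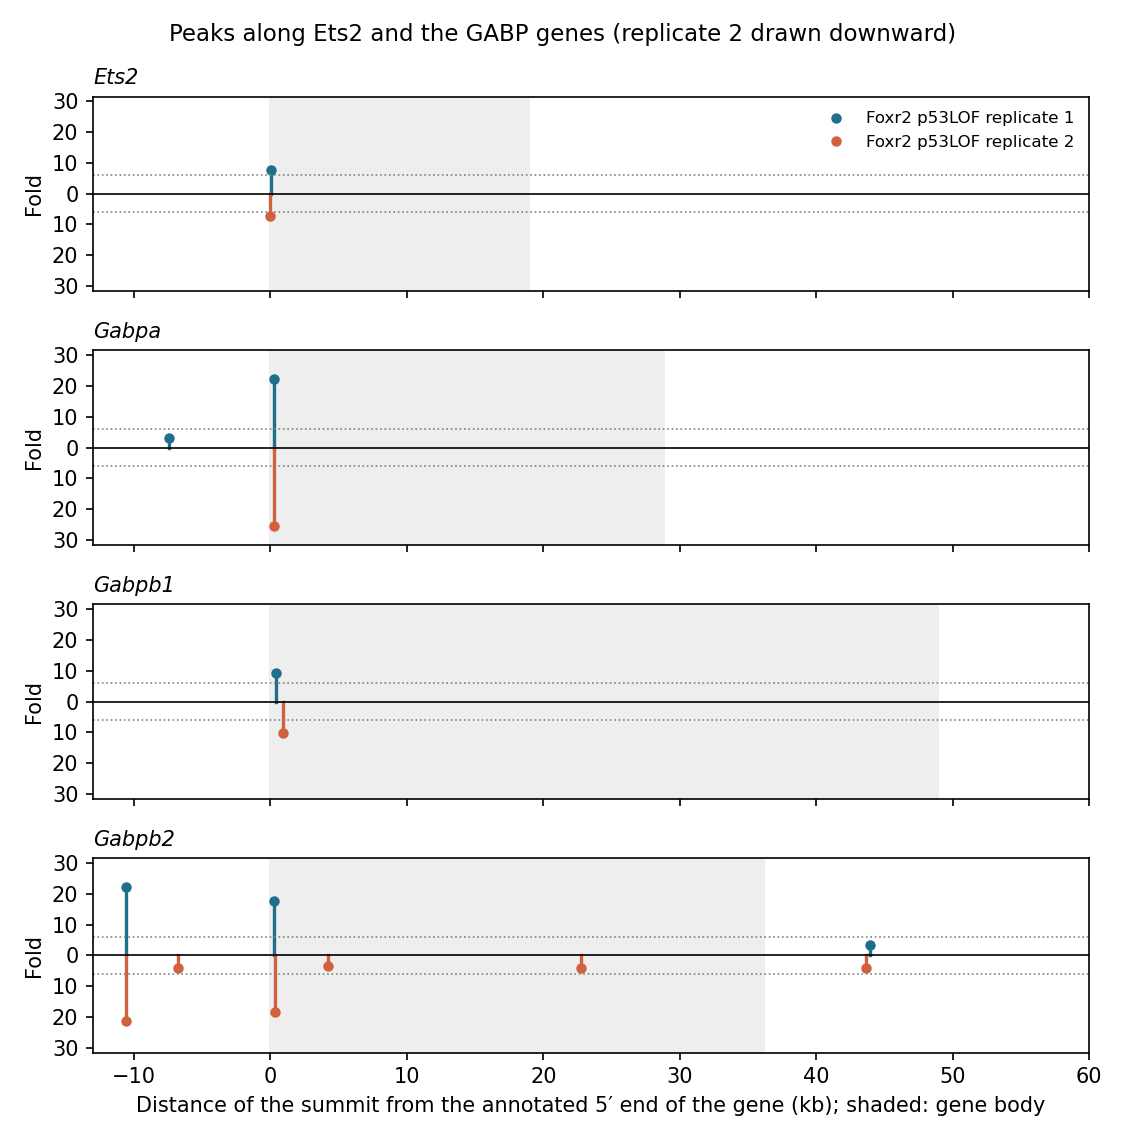
Peaks along the Gabpa, Gabpb1, Gabpb2 and Ets2 regions, with distance from the gene start in kb against fold enrichment, one symbol per replicate and a line at the minimum of 6. Peaks above the line sit at the gene starts, apart from the Gabpb2 site 10.6 kb before the gene, with folds of 22.1 and 21.4.

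The letters CCGGAA, the core that GABP and related ETS proteins prefer, were present in all 4 sites at the GABP genes, as they were in 50.3% of all sites and in 63.8% of those within 1 kb of a coding start. They held 18 matches, between 4 and 6 in each, or 1.54 per kb. The 7 Ets1 sites held 1 match in all, 0.0684 per kb, and the Ets2 site held none. Over all sites the density was 0.453 per kb, 0.559 within 1 kb of a coding start and 0.203 farther away, and 3 of the 4 GABP sites lie within 1 kb of a coding start of the GABP gene itself and the other at starts of other genes. The match nearest to the mean summit of each GABP site is shown in 30 bases of the GRCm38 plus strand, with the match in capitals, where it reads TTCCGG because it lies on the minus strand.
Gabpa at chr16:84835020-84835049: gagggtaagtgcTTCCGGgtccctcagcta
Gabpb1 at chr2:126675647-126675676: cccccagccccgTTCCGGcgggagaaaggg
Gabpb2 start at chr3:95217580-95217609: ccccctcacctaTTCCGGagcgctgccggc
Gabpb2 upstream at chr3:95228468-95228497: ggttaaaaagtcTTCCGGttaaacaacaga

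These matches lay 151 bp from the mean summit at Gabpa, 9 bp at Gabpb1, 4 bp at the Gabpb2 start and 23 bp at the upstream Gabpb2 site. The last 3 therefore fell within the 200 bp window around the mean of the 2 summits. At Gabpb1 that mean lies between summits 547 bp apart, so the match there is not close to either of them. A match is a description of the letters and not evidence that an ETS protein was bound.

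In all, 6 sets of letters were searched on both strands of the 200 bp windows, and the longer CCGGAAGT includes the first of them. The core CCGGAA was in 3 of the 12 member windows and in 10.9% of the windows at all 11943 sites on assembled chromosomes. CCGGAAGT was in 0 (1.72% of all), CAGGAA in 1 (18.7%), GTAAACA in 1 (1.93%), CACGTG in 1 (5.47%), and 3 tandem copies of GGAA in 0 (0.126%). Over whole sites the order differed. CCGGAA was in 5 of the 12, or 41.7% against 50.3% of all sites, which is the reverse of the windows, CACGTG was in 2 (32.7% of all sites) and CCGGAAGT in 2 (10.6%). GTAAACA was in 6 (20.9%), 4 of them at Ets1, CAGGAA was in all 12 (81.2%), and the tandem copies of GGAA were in 0 (1.46%). Whole sites differ in length, so these shares are not on the scale of the windows. RefSeq promoters of 300 bp (GRCm38.p6) were at hand for 6 of the 8 genes, 9 promoters in all, and CCGGAA was in 3, those of Gabpa and Gabpb2 and 1 of the 2 of Gabpb1, against 14.9% of 32851 promoters.

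The replicates were compared at the member sites. In 9 of the 12 sites the fold was higher in replicate 2, as it was in 75.1% of all sites, and the 95% intervals of the replicates overlapped in all 12, against 97.9% of all sites. Summits were within 50 bp of each other in 7 of the 12, against 36.8% of all sites, and over 100 bp apart in the other 5. The widest gaps, up to 974 bp, were at the Ets1 coding starts, at Gabpb1 and at the E-box site of Ets1.

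**Figure D5:**
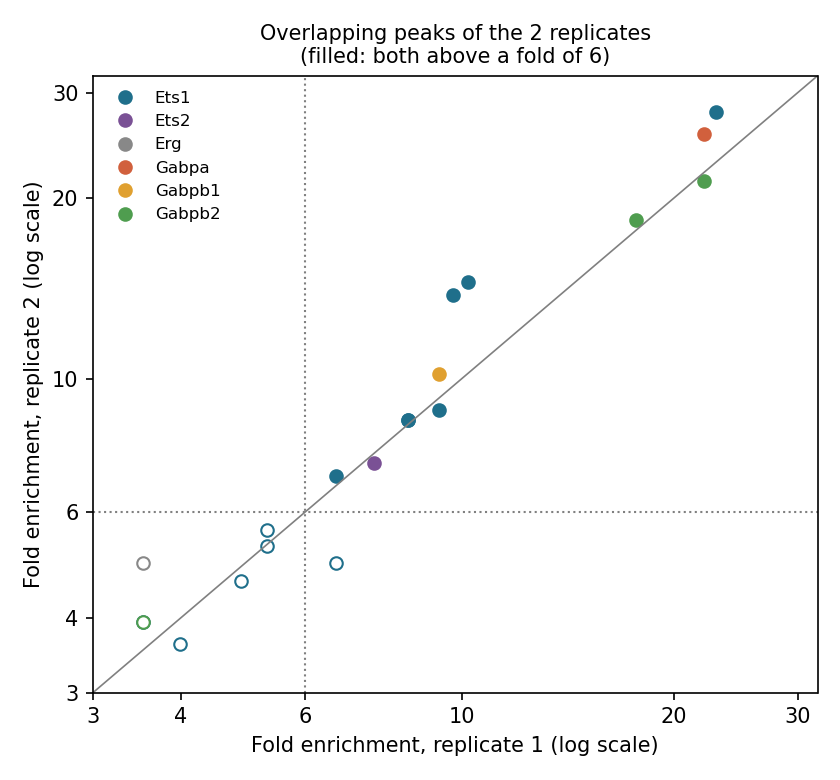
Fold enrichment in replicate 1 against replicate 2 for the 20 stretches at the member genes that were peaks in both Foxr2 p53LOF replicates, with lines at the minimum of 6 and at equal folds. Of these, 12 pass the minimum in both replicates, the highest being the Ets1 site at 23.0 and 27.9, and stretches with identical folds coincide.

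The rest of the ETS family was counted in the same way. Of 20 other ETS genes, 10 held a site (50% against 50.0% of all genes). A site within 1 kb of a coding start was held by 7 of the 20, against 39.2% of all genes, so neither count stood above the background. No gene held more than 4 sites. The 10 genes with a site were Etv2, Etv4, Etv5, Etv6, Elk3, Elk4, Elf1, Elf2, Erf and Spdef. The folds given next are those of the strongest site anywhere in each gene's region, which may lie at the start of another gene. Erf, an ETS repressor gene, had the highest of the 10 genes in both replicates, at 26.1 and 39.1. Elf1 had 22.5 and 27.9 and Elf2 19.9 and 30.6, so their order differed between the replicates, whereas Etv2 was low at 7.07 and 7.56. The strongest site of Ets1 was thus at the level of the strongest site of Elf1, while its 7 sites compare with at most 4 in any of these 20 genes, whose regions differ in length.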

How the data were processed

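CUT&RUN with a V5 antibody was analysed in 4 libraries, 2 of the Foxr2 p53LOF line and 2 V5 controls. RNA-seq and multiome data of the study were not analysed here. The authors trimmed reads (Trimmomatic 0.39), aligned them to mm10 (BWA 0.7.17), processed them with Picard 2.26.6, and called peaks in each library with MACS2 2.2.7.1, with HOMER 4.11 also named in the submitters' processing notes. The deposited peak files give a fold enrichment (a ratio at the summit), −log10 p and −log10 q values, a display score and the summit offset of each peak. The peak files hold no read totals and the study's methods give only an approximate number per library, so depth was read from the folds: at folds up to 30, 100% of peaks in each library gave whole fragments within 0.02, with the deposited −log10 p matched.

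Peaks were kept with fold above 6, −log10 q above 6, length under 10000 bp and no overlap of 10 bp with a control peak. A site needed 1 bp shared between filtered peaks of both replicates. The study also kept only regions in open chromatin of the same mouse model, a step not applied here. Genes were the GENCODE M21 body with 10 kb on either side, and promoter sites lay within 1 kb of a protein-coding transcript start. The tools were Python 3.11.15, NumPy 2.4.6, SciPy 1.17.1, pysam 0.24.0 and matplotlib 3.10.9. No test was run, since results are counts and folds with 2 libraries a group. The members, the list of other ETS genes and the letters searched were chosen with earlier results of these data known. Genes named were all members, genes with a transcript start within 1 kb of a member peak, other ETS genes with a site, and for Ets1 and Gabpa the 2 non-ETS genes of like region length nearest in site number and highest folds. Fam178b, named outside this rule, was chosen after its value was seen. Scripts were tested on simulated data: 100% of 993 planted shared sites were recovered. The alternatives changed the minimum fold and q, the overlaps, the length limit, the region, the promoter window, the motif window and the libraries used. Protein sequences were not used here.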

Additional observations from a re-analysis of the deposited data

How the results depend on the processing

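Raising the minimum −log10 q alone to 10 gave 5 members with a site and 11 sites. At a minimum fold of 10, 3 members held a site, 5 sites remained in the regions and 2 members had a promoter site. When the limits on fold and q were both dropped there were 20 sites. Leaving out 1 library at a time gave 5 to 5 members with a site, 12 to 13 sites and 5 to 5 members with a promoter site. With a Foxr2 p53LOF library left out, a site was a filtered peak of the remaining replicate alone. Those counts therefore do not measure agreement between the replicates. Among single genes, a minimum fold of 10 gave 2 sites at Ets1 and 0 at Ets2 and Gabpb1, dropping the limits gave 13 at Ets1 and 1 at Erg, the gene body alone gave 1 at Gabpb2, and 50 kb on either side gave 2 at Gabpb1. Requiring both summits inside the region, a setting chosen after seeing the data, gave 1 at Gabpb2. Windows of 400 bp held CCGGAAGT at 1 site, CAGGAA at 3 and GTAAACA at 3, and windows of 100 bp held CACGTG at none. Sites at Fli1 and Fev were 0 under all 14 alternatives run, and Gabpa kept 1. The weakest peaks rest on 6 to 8 fragments in the Foxr2 p53LOF libraries, so depth limits what can be said of folds under the minimum. No paired analysis was possible because the results are counts with no test, and the replicate numbers of the lines are not said to pair them.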

Other observations

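The window at the strongest Ets1 site was unusual in base composition. On the plus strand 78% of its 200 bases were purines, against a median of 54.5% on the richer strand over the windows of all sites, and 99.8% of those windows were lower. The Gabpb2 start window was next among the members, with 65% on its richer strand, a value above 96% of all windows. The other Ets1 windows lay between 50% and 61.5%. This measure was chosen after the sequences had been seen, and no test was run.

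Under the same rule as for Ets1, the genes most like Gabpa were Serhl, with 1 site and folds of 21.7 and 25.6, and Adnp2, with 1 site and folds of 22.5 and 25.3. Likeness here is in the number of sites and the highest folds only, over 2 libraries.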
